A study of Arabidopsis thaliana with 24 samples.

Results

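The genes described here are the *ALMT* (*ALUMINUM-ACTIVATED MALATE TRANSPORTER*) family of *Arabidopsis thaliana*, listed by locus with earlier results of these data known. Of 9 listed loci, 6 were among the 20450 genes of the table analysed: *ALMT1* (AT1G08430), *ALMT3* (AT1G18420), *ALMT4* (AT1G25480), *ALMT9* (AT3G18440), *ALMT10* (AT4G00910) and *ALMT12* (AT4G17970). *ALMT2* (AT1G08440), *ALMT5* (AT1G68600) and *ALMT6* (AT2G17470) were not analysed here. RefSeq annotates 14 loci of the genome as malate transporters of this kind, and 8 of them were in the table: the 6 members, and AT5G46600 and AT5G46610, which are given by locus.

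Expression was measured by RNA-seq in root tips of *stop1* and wild-type seedlings, both Col-0, moved when 5 days old to liquid media for 16 h. The *stop1* mutant carries a T-DNA insertion in *STOP1*, which encodes a zinc finger transcription factor, and the wild-type carries none. The treatments were low Pi (-Pi_pH6; 0 mM Pi, pH 6), acidic pH (+Pi_pH5; 1 mM Pi, pH 5), both (-Pi_pH5; 0 mM Pi, pH 5), aluminum (+Al; AlCl3, 0 mM Pi, pH 5) and iron excess (++Fe; 0.1 mM FeSO4 added, 0.1 mM Pi, pH 5), and the control was +Pi_pH6 (1 mM Pi, pH 6). The labels give 100 µM AlCl3, and the study's methods give a higher concentration. Each of the 12 conditions had 2 biological replicates, each RNA from many pooled root tips. Any contrast of +Al or ++Fe with +Pi_pH6 also contains a change of Pi and pH.

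ALMT proteins form anion channels that carry malate, and some also chloride, across the plasma membrane or the vacuolar membrane. ALMT1 sits in the plasma membrane of root cells, where it releases malate into the soil, and released malate chelates Al3+ around the root tip. *ALMT1* is a known direct target of STOP1, and malate released under low Pi also takes part in the arrest of root growth. Other members act in root hairs (ALMT3), in guard cell vacuoles (ALMT4, ALMT6, ALMT9) or in the guard cell plasma membrane (ALMT12, also named QUAC1).

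Reads on genes ran from 17027929 to 30516150 per library, so that 1 read was worth 0.0326 to 0.0572 CPM (reads scaled by library size with TMM factors), and 3 reads were taken as the limit of detection in a library. *STOP1* itself was at 28.8 to 57.8 CPM in the 12 *stop1* libraries, against 108 to 177 CPM in the 12 wild-type libraries, so that reads on the gene were fewer and not absent. Reads counted per gene do not show whether the transcript is intact, and the study names the line a knock-out. The 7 root markers (such as *SCR*, *SHR* and *PIN2*) were all measured, with summed levels of 253 to 317 CPM in *stop1* and 225 to 333 CPM in wild-type. The 6 leaf mesophyll markers summed to 8.52 to 313 CPM in *stop1* libraries and to 9.97 to 980 CPM in wild-type libraries. The libraries with the most were wild-type +Pi_pH5 replicate 2 (980 CPM), wild-type +Al replicate 1 (350 CPM) and *stop1* +Pi_pH6 replicate 1 (313 CPM), and the part of this RNA in the results was not tested beyond leaving out each of these libraries. Of 5 guard cell markers only *MYB60* was measured, at 0.056 to 1.28 CPM. The gene lists that the study heads *stop1* +Pi_pH6 and *stop1* +Pi_pH5 appear to match each other's libraries, and no measure of this is given here. The labels were kept, and calls lost when these labels are exchanged are given beside the result. In bulk root tips, fewer cells of a type and less RNA per cell cannot be told apart.

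Among the members, the promoters of *ALMT1* and *ALMT10* are shown, because these were the members lower in *stop1* in every medium. *ALMT1* lies on chromosome 1 (TAIR10.1; bases 2658602 to 2661310, plus strand, 6 exons), next to *ALMT2* (bases 2662967 to 2665584, plus strand), which was not analysed here. *ALMT10* lies on chromosome 4 (bases 387388 to 391441, minus strand, 6 exons). Each line gives the 250 bases before the gene start, from RefSeq's TAIR10.1 (chr1:2658352-2658601, plus strand, and chr4:391442-391691, minus strand), with every match to the STOP1-binding consensus in capitals:
ALMT1: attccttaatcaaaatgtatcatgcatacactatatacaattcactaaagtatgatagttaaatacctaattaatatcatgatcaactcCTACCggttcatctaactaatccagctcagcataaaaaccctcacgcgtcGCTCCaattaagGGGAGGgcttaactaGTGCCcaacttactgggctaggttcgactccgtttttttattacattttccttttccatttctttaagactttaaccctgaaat
ALMT10: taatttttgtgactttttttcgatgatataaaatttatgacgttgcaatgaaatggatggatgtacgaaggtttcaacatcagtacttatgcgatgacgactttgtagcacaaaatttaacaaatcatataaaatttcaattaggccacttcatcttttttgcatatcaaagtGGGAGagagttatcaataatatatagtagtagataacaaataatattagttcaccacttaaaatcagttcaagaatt
The consensus is GGN, then any base but T, then C or G, with N any base; both strands were searched, and matches may overlap. The *ALMT1* window holds 5 matches, which lie between 161 and 84 bases before the start, and 2 of them overlap in 1 run. The consensus is short: 86.4% of 27437 promoters hold at least 1 match, the median is 3, and 25.7% hold 5 or more. The *ALMT10* window holds 1 match, 77 bases before the start. *ALMT3* has 2 matches, *ALMT4* has 1, and *ALMT9* and *ALMT12* have 0 in the same window, and no match says only that these letters are not in this window.

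The members differ in sequence enough for reads to be told apart. *ALMT1* and *ALMT2* encode proteins with 81.2% identity, but no stretch of 50 exon bases of *ALMT1* occurs elsewhere in the genome. ALMT1 shares 41.5% identity with ALMT10 and 30.3% to 35.5% with ALMT3, ALMT4, ALMT9 and ALMT12. ALMT3 is nearest to ALMT9 (62.9%) and ALMT4 (54.7%), the vacuolar members. Only *ALMT12* had stretches found elsewhere (2.32% of its stretches). The gene of *ALMT10* overlaps AT4G00905 and that of *ALMT3* overlaps the long noncoding RNA gene AT1G18415, both on the opposite strand. The libraries were made strand-specific, but the strand setting of the counting is not given in the sources used here, so that the values of *ALMT3* and *ALMT10* are uncertain to that extent. AT4G00905 was at 5.22 to 6.82 CPM in *stop1* and 4.99 to 7.65 CPM in wild-type, so that its level overlapped between the genotypes. AT1G18415 was at 6.15 to 10.7 CPM in *stop1* and 6.82 to 13.8 CPM in wild-type.

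**Figure D1:**
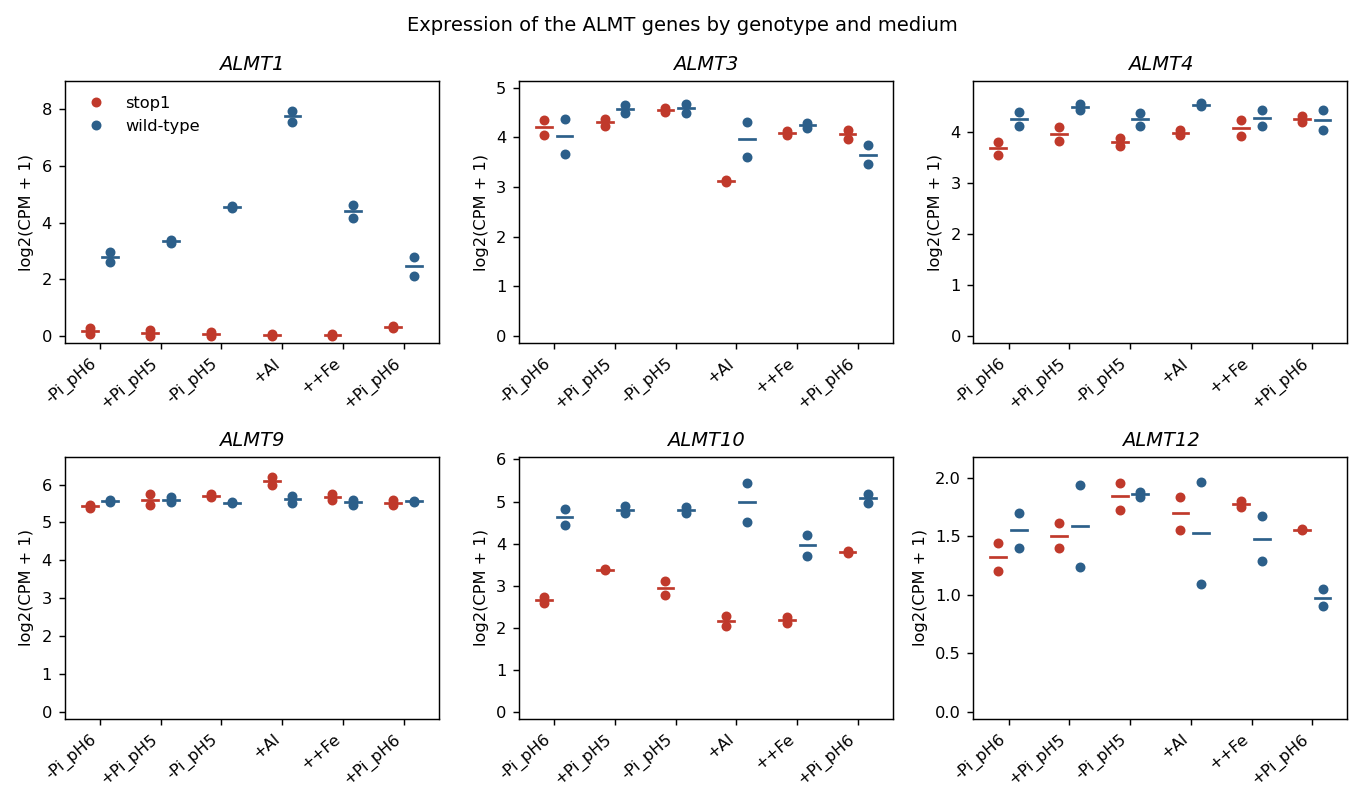
Expression of the 6 *ALMT* genes as log2(CPM + 1), with 1 panel per gene, the media along the x axis and *stop1* (red) left of wild-type (blue); points are the 2 libraries of a condition and lines their mean. *ALMT1* is at or near 0 in every *stop1* library and reaches 243 CPM in wild-type +Al, *ALMT10* is lower in *stop1* in all 6 media, and *ALMT9* stays between 41.1 and 72.5 CPM throughout.

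*ALMT1* was the member with the widest range. In *stop1* it was represented by 0 to 6 reads per library, or 0 to 0.275 CPM, and in wild-type by 66 to 4351 reads, or 3.36 to 243 CPM. In -Pi_pH6 the *stop1* libraries held 1 and 6 *ALMT1* reads, against 209 and 90 in wild-type. In +Pi_pH5 they held 0 and 3 reads, against 161 and 233 in wild-type. The genotypes did not overlap in either medium, and the share of all genes whose libraries lie apart was not counted. In -Pi_pH5 the *stop1* libraries held 2 and 0 reads, against 491 and 446 in wild-type. In +Al they held 1 and 0 reads, against 4351 and 4167 in wild-type. In ++Fe they held 0 and 1 reads, against 506 and 358 in wild-type. In the control +Pi_pH6 they held 5 and 4 reads, against 116 and 66 in wild-type. *ALMT1* transcript was therefore at or near the limit of detection in *stop1* in every medium, including the control, and far above that limit in every wild-type library. The ratio of the summed reads, *stop1* over wild-type, with a 95% exact binomial interval that covers counting error only, was 0.0516 (0.0232 to 0.1) in +Pi_pH6, 0.0241 (0.00962 to 0.0503) in -Pi_pH6 and 0.00902 (0.00185 to 0.0265) in +Pi_pH5. It was 0.0021 (0.000254 to 0.00761) in -Pi_pH5, 0.000111 (2.82e-06 to 0.00062) in +Al and 0.00121 (3.06e-05 to 0.00677) in ++Fe.

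Between the genotypes, limma (Benjamini-Hochberg adjusted over all 20450 genes, adjusted p under 0.05) called *ALMT1* lower in *stop1* in all 6 media. Every gene of the table exceeds 1 plain CPM in at least 2 libraries, and *ALMT1* does so only in wild-type (at most 0.275 CPM in *stop1*). The direction of its genotype contrasts was therefore not independent of that filter. The log2 fold change of *stop1* over wild-type on the log2(CPM + 1) scale was -2.61 (adjusted p = 1.2e-06) in -Pi_pH6, -3.22 (6.5e-08) in +Pi_pH5, -4.48 (4.5e-10) in -Pi_pH5, -7.71 (9.1e-14) in +Al, -4.35 (7.3e-10) in ++Fe and -2.15 (3.4e-05) in +Pi_pH6, each with a standard error of 0.21. These fitted values depend on the pseudocount because the *stop1* libraries are near 0: with a pseudocount of 0.1 the value in +Al was -10.79, and the call was kept in all 6 media. Fitted on the 4 libraries compared alone, the +Pi_pH6 contrast of *ALMT1* was not called (adjusted p = 0.12).

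*ALMT10* was the other member that was lower in *stop1* in every medium. In -Pi_pH6 it was at 5.02 and 5.63 CPM in *stop1*, against 20.7 and 27.2 CPM in wild-type. In +Pi_pH5 it was at 9.44 and 9.3 CPM in *stop1*, against 28.5 and 25.4 CPM in wild-type. The groups lie apart in both media. In -Pi_pH5 it was at 5.84 and 7.57 CPM in *stop1*, against 25.6 and 28.4 CPM in wild-type. In +Al it was at 3.81 and 3.11 CPM in *stop1*, against 22 and 42.6 CPM in wild-type. The wild-type +Al replicates of *ALMT10* thus differed widely, though both were above every *stop1* library. In ++Fe it was at 3.79 and 3.31 CPM in *stop1*, against 17.4 and 12.1 CPM in wild-type. In +Pi_pH6 it was at 12.6 and 13.1 CPM in *stop1*, against 30.3 and 35.2 CPM in wild-type. The genotypes did not overlap within any medium, and 1 wild-type ++Fe library (12.1 CPM) was below the *stop1* control libraries. The share of all genes whose libraries lie apart was not counted, so that the lack of overlap has no baseline here.

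All 6 genotype contrasts of *ALMT10* were called lower by limma, with log2 fold changes of -1.97 (adjusted p = 0.00015) in -Pi_pH6, -1.43 (0.0056) in +Pi_pH5, -1.87 (0.0003) in -Pi_pH5, -2.83 (2e-07) in +Al, -1.77 (0.00035) in ++Fe and -1.28 (0.024) in +Pi_pH6, each with a standard error of 0.23. The mean CPM in wild-type was 9.33 times that in *stop1* in +Al and 2.55 times that in *stop1* in +Pi_pH6. When +Pi_pH6 and +Pi_pH5 were swapped among the *stop1* libraries, the call in +Pi_pH5 was lost (log2 fold change -1.01, adjusted p = 0.061), and that in +Pi_pH6 was kept (-1.70, adjusted p = 0.00099). Leaving out any 1 of the 4 libraries compared ended the call in +Pi_pH6 (adjusted p from 0.076 to 0.42), and in +Pi_pH5 leaving out wild-type replicate 1 or either *stop1* replicate did so (0.07 to 0.082). Fitted on the libraries compared alone, the contrasts in +Pi_pH6 (0.055) and ++Fe (0.06) were not called.

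**Figure D2:**
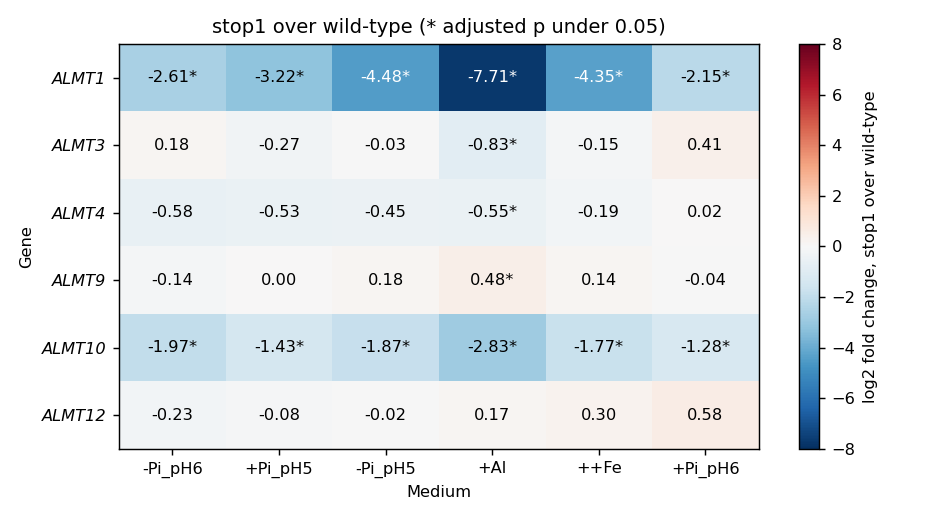
Log2 fold change of *stop1* over wild-type for each *ALMT* gene (rows) in each medium (columns), with the colour scale centred on 0 and an asterisk where the adjusted p was under 0.05. *ALMT1* and *ALMT10* carry an asterisk in all 6 columns, *ALMT3*, *ALMT4* and *ALMT9* in +Al, and *ALMT12* in none; the values of *ALMT1* depend on the pseudocount.

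*ALMT3*, *ALMT4* and *ALMT9* were called between the genotypes in +Al and in no other medium by limma, and whether their difference in +Al exceeds that in the other media was not tested apart from the interactions with +Pi_pH6 and -Pi_pH5. *ALMT3*, which is known for malate release from root hairs under low phosphate, was at 7.85 and 7.62 CPM in *stop1* +Al, against 18.9 and 11.2 CPM in wild-type +Al (log2 fold change -0.83, adjusted p = 0.012). *ALMT4*, a vacuolar channel known for malate release in stomatal closure, was at 14.4 and 15.3 CPM, against 21.6 and 22.9 CPM (-0.55, adjusted p = 0.027). The libraries of the genotypes did not overlap for either gene, and the share of all genes whose libraries lie apart was not counted in any medium. Lying apart was not particular to +Al. The *ALMT3* libraries also lay apart in ++Fe (16.6 and 15.4 CPM in *stop1*, 17.3 and 18.5 CPM in wild-type) and +Pi_pH5. In +Pi_pH6 they lay apart with *stop1* higher (14.7 and 16.8 CPM against 13.3 and 10 CPM). Those of *ALMT4* lay apart in -Pi_pH6, +Pi_pH5 and -Pi_pH5 as well. Those of *ALMT9* did so in -Pi_pH6, with *stop1* lower, and in -Pi_pH5, with *stop1* higher. Limma called none of these. *ALMT9*, a vacuolar chloride channel that malate activates, went the other way, with 63 and 72.5 CPM in *stop1* +Al against 45 and 51.3 CPM in wild-type +Al (0.48, adjusted p = 0.0057). Without wild-type +Al replicate 1, which held the most leaf marker RNA of the +Al libraries, the 3 calls were lost: the log2 fold change was -0.48 for *ALMT3* (adjusted p = 0.23), -0.59 for *ALMT4* (0.089) and 0.39 for *ALMT9* (0.087). The *ALMT4* call was also lost without any other of the 4 libraries (adjusted p from 0.078 to 0.15), that of *ALMT3* without either *stop1* +Al library (0.058 and 0.065) and that of *ALMT9* without *stop1* +Al replicate 2 (0.084). Fitted on the 4 libraries alone, none of the 3 was called (0.058 to 0.11). Among the 7 root markers, *COBL9*, a marker of root hairs, was lower between the genotypes in +Al (log2 fold change of *stop1* over wild-type -1.09, adjusted p = 0.00071) and *SHR* was higher (0.42, adjusted p = 0.014), and their part in the results was not tested. *ALMT4* was also at a lower mean in *stop1* in the other 4 treatments, with log2 fold changes between -0.58 and -0.19, none of which passed the limma test, although DESeq2 called that in -Pi_pH6 (-0.65, adjusted p = 0.05).

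*ALMT12*, the rapid anion channel of guard cells, was at 1.3 to 2.87 CPM in *stop1* and 0.865 to 2.9 CPM in wild-type, or 17 to 70 reads per library. Its replicates differed most in wild-type +Al (2.9 and 1.12 CPM) and wild-type +Pi_pH5 (1.36 and 2.82 CPM). In both, the higher library was among those named above for leaf marker RNA. The *stop1* +Pi_pH6 libraries were alike (1.93 and 1.95 CPM), and the part of leaf RNA in these levels was not tested. It was called in 0 of 30 contrasts by limma, of which its smallest adjusted p was 0.12 (wild-type -Pi_pH5 over wild-type +Pi_pH6, log2 fold change 0.88, unadjusted p = 0.0033). The edgeR likelihood ratio test called that contrast (log2 fold change 1.43, adjusted p = 0.045).

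Set against all genes, the share of members called differed between media. Of 20450 genes, limma called 0.533% in -Pi_pH6, 0.406% in +Pi_pH5, 0.587% in -Pi_pH5, 20.1% in +Al, 1.21% in ++Fe and 0.191% in +Pi_pH6 between *stop1* and wild-type. The members called numbered 2 of 6 in each medium except +Al, where they numbered 5 of 6, in the medium with the largest share of genes called. In all 6 media the 2 or 5 members include *ALMT1* and *ALMT10*, and *ALMT1* is in the table through its wild-type libraries only. The median log2 fold change of the 6 members was -0.69 in +Al and between -0.41 and -0.01 in the other media, beside medians of all genes between -0.02 and 0.01.

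In wild-type, *ALMT1* rose in 3 of the 5 treatments. It was at 6.81 and 5.09 CPM in -Pi_pH6, against 5.92 and 3.36 CPM in +Pi_pH6, groups that overlap. It was at 8.74 and 9.39 CPM in +Pi_pH5, above both control libraries, but this contrast was not called (log2 fold change 0.87 ± 0.21 SE, adjusted p = 0.16). In -Pi_pH5 it was at 23.1 and 21.6 CPM, with a mean 4.82 times that of the control (2.09, adjusted p = 4.9e-05). In +Al it reached 243 and 187 CPM, a mean of 215 ± 39 CPM (SD, n = 2) against 4.64 ± 1.8 CPM in the control, 46.4 times as high (5.29, adjusted p = 7.4e-11). In ++Fe it was at 23.4 and 17 CPM, 4.36 times the control (1.93, adjusted p = 6.7e-06). The libraries of -Pi_pH5 and ++Fe overlapped, and the +Al libraries stood far above both. Fitted on the 4 libraries compared alone, the -Pi_pH5 contrast was not called (adjusted p = 0.056). In *stop1*, where reads were near the limit of detection, no fold change between media is given; with a pseudocount of 1 limma called none, while *ALMT1* was called lower in *stop1* +Al and ++Fe than in *stop1* +Pi_pH6 by limma with a pseudocount of 0.1 (adjusted p = 0.018 and 0.047) and by edgeR's likelihood ratio test (0.016 and 0.04).

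**Figure D3:**
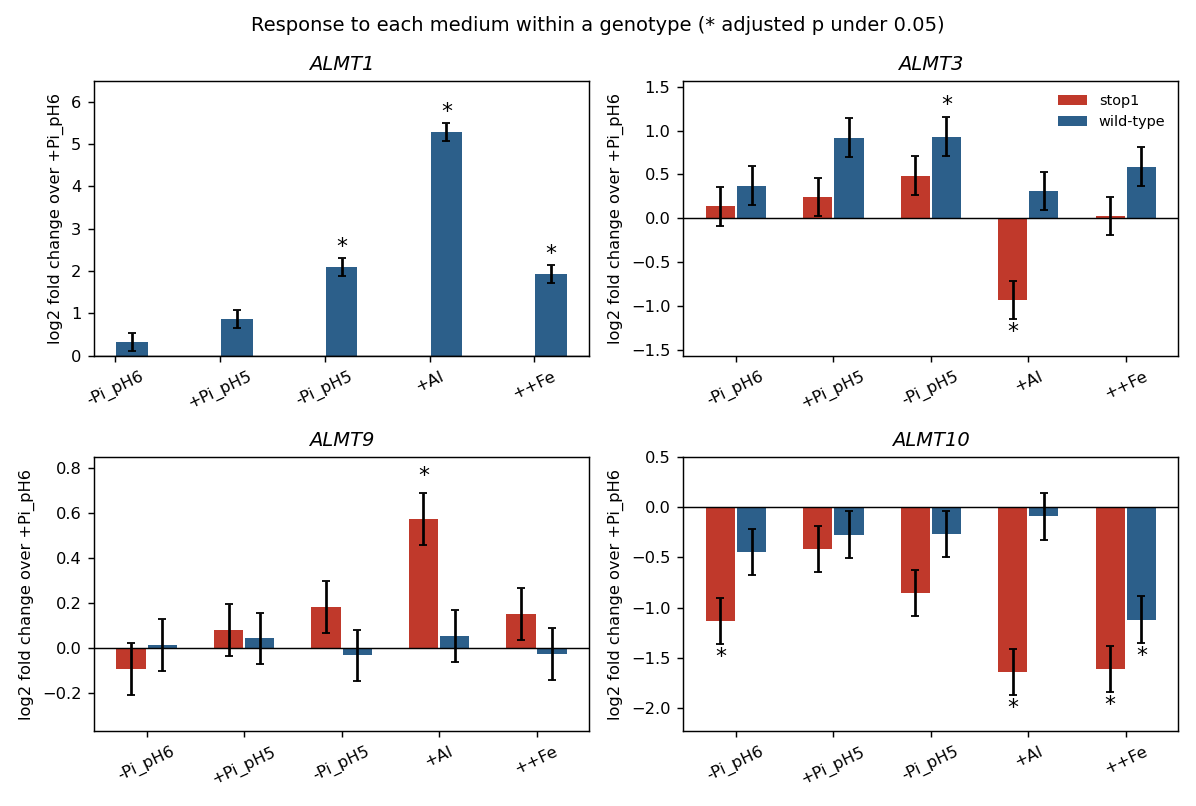
Log2 fold change over +Pi_pH6 of the same genotype for *ALMT1*, *ALMT3*, *ALMT9* and *ALMT10*, with *stop1* in red and wild-type in blue, bars for the limma estimate, error bars for its standard error and an asterisk where the adjusted p was under 0.05. *ALMT1* is drawn for wild-type only, where it reaches 5.29 in +Al. *ALMT10* falls to -1.64 in *stop1* +Al and is at -0.09 in wild-type +Al, where 1 library was below both control libraries and 1 above (22 and 42.6 CPM).

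Calls of the other members in wild-type were fewer. *ALMT3* was at 21.4 and 24.5 CPM in -Pi_pH5, against 13.3 and 10 CPM in +Pi_pH6, and was called higher (log2 fold change 0.93, adjusted p = 0.045). Its level in +Pi_pH5 was the same height (21.5 and 24.1 CPM; 0.92), but the adjusted p was 0.16 by limma, whereas DESeq2 (0.024) and edgeR's likelihood ratio test (0.031) called it. The *ALMT3* call in -Pi_pH5 was lost without wild-type +Pi_pH6 replicate 2 (log2 fold change 0.74, adjusted p = 0.55) and without either -Pi_pH5 library (0.12 and 0.38). *ALMT10* fell in wild-type ++Fe, with 17.4 and 12.1 CPM against 30.3 and 35.2 CPM in +Pi_pH6 (-1.12, adjusted p = 0.0023). *ALMT4* and *ALMT9* were called in none of the 5 treatments of wild-type, and the log2 fold changes of *ALMT9* stayed between -0.03 and 0.05 with a standard error of 0.12. The share of all genes called in wild-type was 0.166% in -Pi_pH6, 0.0293% in +Pi_pH5, 1.44% in -Pi_pH5, 8.46% in +Al and 21.7% in ++Fe, and the members called numbered 0, 0, 2, 1 and 2 of 6 in the same order. These contrasts share the +Pi_pH6 libraries.

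In *stop1*, *ALMT10* was below both +Pi_pH6 libraries (12.6 and 13.1 CPM) in every treatment, and limma called 3 of them. These contrasts share the *stop1* +Pi_pH6 libraries, and whether that pair was itself high was not tested. In +Pi_pH5 *ALMT10* was at 9.44 and 9.3 CPM and was not called by limma (log2 fold change -0.42, adjusted p = 0.86). It was called lower in -Pi_pH6 (5.02 and 5.63 CPM; log2 fold change -1.13, adjusted p = 0.021), in +Al (3.81 and 3.11 CPM; -1.64, adjusted p = 2.8e-05) and in ++Fe (3.79 and 3.31 CPM; -1.61, adjusted p = 0.00011). With the labels exchanged, the contrast in -Pi_pH6 was not called (-0.71, adjusted p = 0.29), and those in +Al (-1.22, adjusted p = 0.00053) and ++Fe (-1.19, adjusted p = 0.0017) were. In *stop1* -Pi_pH5 *ALMT10* was at 5.84 and 7.57 CPM, below both control libraries, and was not called by limma (-0.86, adjusted p = 0.079) but was by edgeR's likelihood ratio test (0.025) and DESeq2 (0.027). The -Pi_pH6 call was also lost on leaving out any 1 of its 4 libraries (adjusted p from 0.13 to 0.22). *ALMT3* was lower in *stop1* +Al, at 7.85 and 7.62 CPM against 14.7 and 16.8 CPM in *stop1* +Pi_pH6 (-0.94, adjusted p = 0.0029). *ALMT9* was higher in *stop1* +Al, at 63 and 72.5 CPM against 47.5 and 42.8 CPM (0.57, adjusted p = 0.00083). The share of all genes called in *stop1* was 0.998% in -Pi_pH6, 0.0782% in +Pi_pH5, 1.6% in -Pi_pH5, 37.5% in +Al and 14.8% in ++Fe, and the members called numbered 1, 0, 0, 3 and 1 of 6 in the same order, so that the 3 members in +Al stand beside the largest share of genes called in *stop1*.

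Whether the genotypes responded differently to a medium was tested by the interaction. For *ALMT1* the *stop1* response was lower than that of wild-type to -Pi_pH5 (difference of log2 fold changes -2.33, adjusted p = 0.0049), to +Al (-5.56, adjusted p = 6.2e-09) and to ++Fe (-2.20, adjusted p = 0.007). Of these, only the difference in +Al was also called with a pseudocount of 0.1 and by edgeR's quasi-likelihood test. The adjusted p of the others was 0.17 in -Pi_pH5 and 0.1 in ++Fe with that pseudocount, and 0.053 and 0.07 without *stop1* +Pi_pH6 replicate 1. *ALMT10* (-1.55, adjusted p = 0.0056) and *ALMT3* (-1.24, adjusted p = 0.017) also responded less, or downward, to +Al in *stop1* compared with wild-type. The *ALMT3* difference was lost without wild-type +Al replicate 1 (-0.89, adjusted p = 0.11), and also without wild-type +Pi_pH6 replicate 2, *stop1* +Pi_pH6 replicate 2 or either *stop1* +Al replicate (0.052 to 0.083). Fitted on the libraries compared alone, neither was called (adjusted p = 0.059 for *ALMT10* and 0.078 for *ALMT3*). For *ALMT9* the difference in +Al was 0.52 (adjusted p = 0.058), which DESeq2 called (adjusted p = 0.036). Over all genes the interaction was called for 0.0196% in -Pi_pH5, 8.72% in +Al and 0.0489% in ++Fe, with 1, 3 and 1 of 6 members. In -Pi_pH6 and +Pi_pH5 limma called 0% of genes and 0 members, with 711 and 772 genes at an unadjusted p under 0.05. For these 2 contrasts edgeR's quasi-likelihood test called 0 and 0 genes, its likelihood ratio test 6 and 5, and DESeq2 11 and 3.

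Aluminum at matched pH and Pi was tested against -Pi_pH5. In wild-type *ALMT1* was at 243 and 187 CPM in +Al against 23.1 and 21.6 CPM in -Pi_pH5, 9.62 times as high (log2 fold change 3.20, adjusted p = 1.1e-07). No other of the 6 members was called in wild-type, where *ALMT3* was at 18.9 and 11.2 CPM in +Al against 21.4 and 24.5 CPM (-0.62, adjusted p = 0.15). In *stop1* *ALMT3* was lower in +Al, at 7.85 and 7.62 CPM against 21.7 and 23.1 CPM in -Pi_pH5, and the mean in -Pi_pH5 was 2.9 times that in +Al (-1.42, adjusted p = 8.9e-05). *ALMT10* was lower as well (3.81 and 3.11 CPM against 5.84 and 7.57 CPM; -0.79, adjusted p = 0.015), and *ALMT9* higher (63 and 72.5 CPM against 52.8 and 49.8 CPM; 0.39, adjusted p = 0.015). The *ALMT9* and *ALMT10* calls were lost without *stop1* +Al replicate 2 (adjusted p = 0.16 and 0.11) and without *stop1* -Pi_pH5 replicate 2 (0.097 and 0.13). The difference between the genotypes was called for *ALMT1* by limma (-3.23, adjusted p = 6.5e-06) but not by edgeR's quasi-likelihood test (0.34), its likelihood ratio test (0.14) or DESeq2 (0.14). For *ALMT10* it was -0.96 (adjusted p = 0.094), which the likelihood ratio test (0.026) and DESeq2 (0.031) called. For *ALMT3* it was -0.80 and was not called (adjusted p = 0.15). Of all genes, 4% were called in wild-type, 31% in *stop1* and 6.67% for the difference, with 1, 3 and 1 of 6 members.

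Low Pi and acidic pH were set against each other in the 4 media without added metal. Wild-type *ALMT1* was higher in -Pi_pH5 than in +Pi_pH5 (23.1 and 21.6 CPM against 8.74 and 9.39 CPM; log2 fold change 1.21, adjusted p = 0.035) and than in -Pi_pH6 (6.81 and 5.09 CPM; 1.76, adjusted p = 0.00082). The 2 single stresses thus gave means of 9.06 and 5.95 CPM and the combination 22.4 CPM. The interaction of Pi and pH for *ALMT1* was 0.89 ± 0.30 (SE) and was not called (adjusted p = 1), so that a departure from the sum of both effects on the log2 scale was not shown. Both *ALMT1* calls were lost with a pseudocount of 0.1 (adjusted p = 0.92 and 0.1), and the first was lost without any 1 of the 4 libraries compared. Of all genes, 0.0831% were called for -Pi_pH5 over +Pi_pH5, 0.499% for -Pi_pH5 over -Pi_pH6 and 0.00489% for the interaction in wild-type, with 1, 1 and 0 of 6 members. In *stop1* the same contrasts called 0.088%, 1.71% and 0.0342% of genes and 0 of 6 members each.

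Levels of different members were compared as CPM per kilobase of exon. *ALMT9* had the highest level per kilobase in 11 of 12 conditions, at 19.9 to 32 CPM per kb in *stop1* and 21.3 to 22.8 CPM per kb in wild-type, and its libraries did not overlap those of the next member in any of the 11. In wild-type +Al *ALMT1* came first with 110 CPM per kb, above *ALMT9* with 22.8. *ALMT1* was last in all 6 media in *stop1*, whereas in wild-type it was next to last in 3 media and stood at place 3 in -Pi_pH5, place 2 in ++Fe, where its libraries overlapped those of *ALMT3*, and place 1 in +Al. *ALMT12* had the lowest level in all wild-type media. The middle places of *ALMT3*, *ALMT4* and *ALMT10* were not always separable: in wild-type +Pi_pH6 *ALMT10* (9.12 CPM per kb) overlapped *ALMT4* (8.85), which overlapped *ALMT3* (6.68). In *stop1* *ALMT10* stood below *ALMT3* and *ALMT4* in every medium, and it was at 0.962 CPM per kb in +Al, where its libraries overlapped those of *ALMT12*. Per kilobase of coding sequence *ALMT10* moved up to place 2 in wild-type -Pi_pH6, +Pi_pH5 and -Pi_pH5 (its annotated exons span 3594 bases for a protein of 485 residues), while *ALMT9* again came first in 11 conditions.

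**Figure D4:**
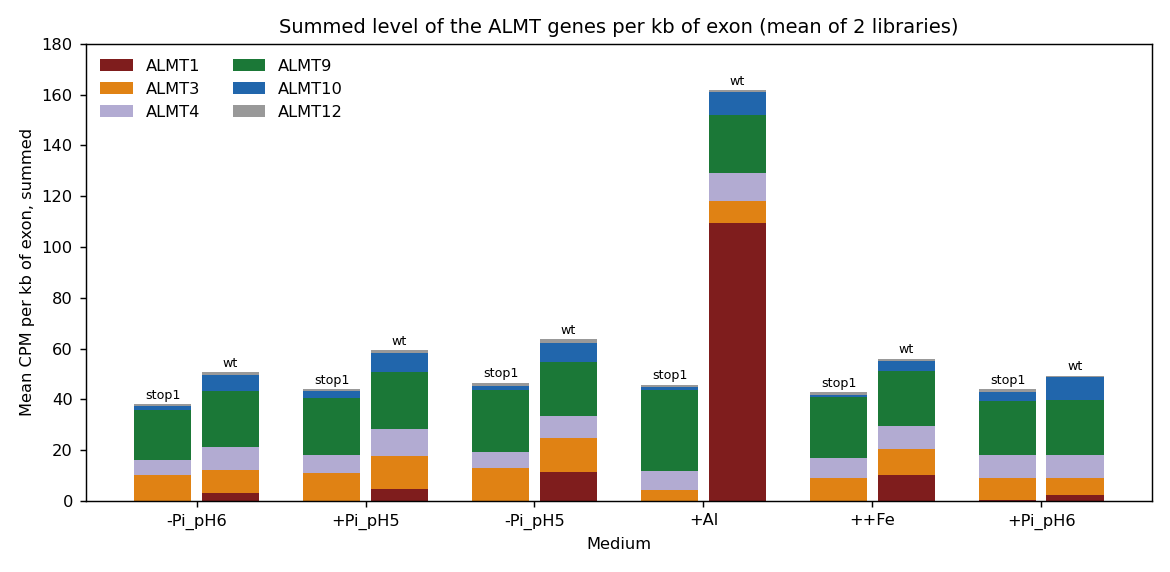
Mean CPM per kilobase of exon of the 6 *ALMT* genes, stacked, for *stop1* (left bar) and wild-type (right bar) in each medium; the bars start at 0 and show the mean of 2 libraries. The wild-type +Al bar is the tallest at 161.9, of which *ALMT1* makes 67.7%, while the *stop1* bars lie between 38 and 46.6.

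Summed over the 6 members, the level per kilobase was 45.8 in *stop1* +Al, against 161.9 in wild-type +Al. *ALMT1* made 0.0256% of that sum in *stop1* +Al and 67.7% in wild-type +Al. The *stop1* share rests on 1 and 0 reads in the 2 libraries, below the limit of detection. In wild-type it made 18.4% in ++Fe, 17.9% in -Pi_pH5, 7.8% in +Pi_pH5 and 5.99% in -Pi_pH6, against 4.79% in +Pi_pH6. The sum in *stop1* stayed between 38 and 46.6 over the media, and *ALMT9* was at 32 CPM per kb in *stop1* +Al against 22.8 CPM per kb in wild-type +Al.

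Values of the 2 annotated family loci outside the list follow. AT5G46600 was at 18.4 and 17.8 CPM in *stop1* +Al, against 8.03 and 6.48 CPM in wild-type +Al (log2 fold change 1.22, adjusted p = 0.0023). In that contrast 20.1% of all genes were called. Against -Pi_pH5 AT5G46600 rose with aluminum in both genotypes, by 1.93 in *stop1* (adjusted p = 1.9e-05) and 1.17 in wild-type (adjusted p = 0.013). Of all genes, 31% and 4% were called there. The difference between these rises was not called by limma (0.75, adjusted p = 0.28). From +Pi_pH6 the difference in +Al was called (1.55, adjusted p = 0.012), beside 8.72% of all genes. The protein of AT5G46600 is 70.3% identical to ALMT12 and 33.9% to ALMT1. AT5G46610 was at 0.0971 to 1.03 CPM in *stop1* and 0.051 to 1.48 CPM in wild-type, or 1 to 32 reads. It was called by limma in 1 of 30 contrasts, as higher in wild-type ++Fe over +Pi_pH6 (log2 fold change 0.74, adjusted p = 0.048). Its libraries there were at 1.48 and 0.426 CPM against 0.051 and 0.203 CPM, and 21.7% of all genes were called in that contrast. These loci were added after the members had been fixed.

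Other genes of the pathway were counted from 3 lists. Of 10 measured genes, *STOP1* itself and its known targets, 10 were lower and 0 higher in *stop1* than in wild-type in +Al, where 20.1% of all genes were called, with a median log2 fold change of -3.15. Those with the smallest p were *STOP2*, a homologue of STOP1 (-5.86), *CIPK23*, a protein kinase (-4.87), and *GDH1*, a glutamate dehydrogenase (-2.85). In the other media 5 or 6 of the 10 were lower, and 1 was higher in +Pi_pH5 and in +Pi_pH6. Of all genes, 0.191% (+Pi_pH6) to 1.21% (++Fe) were called between the genotypes in these media. In wild-type 8 of the 10 were higher in +Al than in +Pi_pH6 and 0 were lower, beside 8.46% of all genes called, led by *HAK5*, a potassium transporter (6.39), and *MATE*, a citrate transporter (3.78). In wild-type -Pi_pH5 3 of the 10 were higher, beside 1.44% of all genes called, and in wild-type ++Fe 6, beside 21.7%. This list was drawn from genes known to depend on STOP1, so that its direction between the genotypes was not open.

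Of 23 measured genes for malate enzymes and carriers, 3 were higher and 5 lower in *stop1* than in wild-type in +Al, with a list median of -0.04 beside -0.02 for all genes; of all 20450 genes, 2288 were higher and 1825 lower in that contrast (20.1% called). *TDT*, the vacuolar dicarboxylate carrier (-4.01), *PPC3*, a phosphoenolpyruvate carboxylase (-3.61), and *NADP-ME2*, a malic enzyme (-1.73), had the smallest p. In wild-type +Al over +Pi_pH6, 3 were higher and 2 lower, beside 8.46% of all genes called, with *NADP-ME2* (1.25), *TDT* (1.61) and *NADP-ME1* (1.82) in front. Of 11 measured genes of the SLAC and CLC anion channel families, 0 were higher and 6 lower in *stop1* than in wild-type in +Al, in the same contrast with 20.1% of all genes called, among them *SLAH1* (-2.84), *SLAH3* (-1.11) and *CLC-B* (-1.76). *SLAH1* and *SLAH3* were also the 2 genes of that list called in +Pi_pH6, at -1.86 and -0.70, beside 0.191% of all genes called.

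The genes whose condition means of log2(CPM + 1) followed a member most closely over the 12 conditions are given as a description, since the points share libraries and no test was made. For *ALMT1* they were AT3G13950 (Pearson r = 0.985), *RLK* (AT2G37710; 0.982), *GAD* (AT5G17330, a glutamate decarboxylase; 0.98), *DGR2* (AT5G25460, a cell wall protein of the DUF642 kind; 0.979) and *NADP-ME2* (AT5G11670; 0.977). *DGR2* was at a mean of 31.7 CPM in *stop1* +Al and 1230 CPM in wild-type +Al. For *ALMT10* they were *NRT1.5* (AT1G32450, a nitrate transporter; 0.979) and AT3G46270 (0.947), and for *ALMT3* AT1G74830 (0.991) and AT5G46870 (0.983). For *ALMT9* they were *WRKY15* (AT2G23320, a transcription factor; 0.96) and *UGT89B1* (AT1G73880; 0.951). *ALMT4* (AT2G32487, 0.889; *PUP7*, 0.864) and *ALMT12* (AT4G09500, 0.789; *PME2*, 0.773) had less similar companions. Among the members themselves, *ALMT1*, *ALMT4* and *ALMT10* had r between 0.771 and 0.78 with each other, *ALMT3* and *ALMT9* had r = -0.63, and *ALMT1* and *ALMT3* had r = 0.15.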

How the data were processed

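The deposited table holds a normalized signal: the authors aligned reads with HISAT2 2.1.0, counted them on genes with HTSeq 0.11.2 and scaled them in edgeR 3.28.0 as CPM with TMM factors (0.947 to 1.053). All 20450 genes exceed 1 plain CPM in at least 2 libraries. Whole reads were recovered for 100% of values (largest distance from whole 0.000106). Groups were taken from the labels. The columns of values left unused number 0. Members and lists were chosen with earlier results of these data known.

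Contrasts were estimated by limma 3.58.1 (R 4.3.3) from log2(CPM + 1) values, a scale that understates changes of low genes, using a mean-variance trend, 1 coefficient for each of 12 conditions of 2 biological replicates, and Benjamini-Hochberg adjustment over all genes; a call needed an adjusted p below 0.05. edgeR 4.0.16 and DESeq2 1.42.0 ran on the recovered reads as alternatives. All were also run on simulated counts with the same spread for every gene, where only well-expressed genes were changed, in wild-type +Al. Those counts do not cover genes near 0, such as *ALMT1* in *stop1*. Every member was named; from each list the 3 genes with the smallest p in a contrast; by likeness the 5 (*ALMT1*) or 2 genes with the highest r among those spanning at least 1 log2 unit. Sequences, exon lengths and protein identities come from RefSeq's TAIR10.1; the notes name TAIR10, and the table holds no coordinates. Intervals cover counting error only. Alternatives were a pseudocount of 0.1, other scalings and tests, a mean CPM of at least 1, the compared libraries alone, a replicate block, each library left out, and exchanged labels.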

Additional observations from a re-analysis of the deposited data

Results flagged for a closer look

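Effects of the medium that differed between *stop1* and wild-type by the interaction test of limma (adjusted p under 0.05 over all genes) are listed here as differences of log2 fold changes, *stop1* response minus wild-type response. For *ALMT1* the difference was -2.33 in -Pi_pH5, -5.56 in +Al and -2.20 in ++Fe, each against +Pi_pH6, and -3.23 for aluminum at matched pH and Pi. For *ALMT3* it was -1.24 and for *ALMT10* -1.55, both in +Al against +Pi_pH6. The *ALMT1* values depend on the pseudocount, since *stop1* libraries held 0 to 6 of its reads.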

How the results depend on the processing

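Of 37 calls of a member in a contrast, 0 reversed sign in any alternative tried; 475 of the recomputed values stayed on their side of the threshold and 67 did not. Of these, 38 came from leaving out 1 library, where the lone library of a condition was assumed to vary like the rest. Calls numbered 5 among treatments in wild-type, 5 among treatments in *stop1*, 15 between the genotypes, 5 among interactions, 5 for aluminum at matched pH and Pi and 2 for low Pi and acidic pH. Fitting only the libraries compared gave 3, 9, 1 and 0 calls for treatments in wild-type, the genotypes, the interactions and low Pi with acidic pH. A pseudocount of 0.1 gave 3 interaction calls and 0 for low Pi with acidic pH, edgeR's quasi-likelihood test 3 and 1, and its likelihood ratio test 8 treatment calls in *stop1*. Leaving out 1 library at a time gave 4 to 8 calls in wild-type, 4 to 6 in *stop1*, 12 to 15 between the genotypes, 3 to 6 among interactions, 3 to 7 for aluminum and 1 to 2 for low Pi with acidic pH. The cause was not tested, and leaving out a library also lowers the number of libraries.

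The labels do not say that a replicate number marks a shared batch or day, and not every pair of conditions deviated together: of 66 pairs of conditions, 37 had a correlation of same-numbered deviations over 0.1 and 9 under -0.1 (median 0.119). The median is above 0, and pairing was not established. With a replicate block the 6 counts were 6, 5, 15, 5, 5 and 2, and the call gained was *ALMT3* in wild-type ++Fe over +Pi_pH6 (0.59, adjusted p = 0.048, against 0.066 without the block). Depth limits *ALMT1* in *stop1* and AT5G46610.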
